A study of Mus musculus with 8 samples.

Results

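TRIM63 and TRIM55 are 2 of the 2922 genes on a spotted 2-colour array of muscle genes, hybridised 8 times, and they hold 4 of the 9984 spots. Every spot whose annotation names TRIM63 or TRIM55 as its single gene was taken. Both genes were chosen by their known part in muscle atrophy, with their scores in these data already seen, so their scores are given as a description and no test of them is reported.

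The arrays, called a human array in the labels, carried RNA of C2C12, a line of mouse myoblasts, the precursor cells of muscle fibres. The cells were grown in DMEM with fetal bovine serum and met control medium (MBN) or medium from cultures of the human pancreatic cancer line CAPAN-1 (MBC). The study asked how the conditioned medium alters gene expression in these myoblasts. The groups are MBN at 0, 14 and 24 h and MBC at 14 and 24 h, and the labels give no genetic change in any of them. MBC14 was compared with MBN14, MBC24 with MBN24, and both MBC14 and MBC24 with MBN0. Each of these 4 comparisons was hybridised 2 times: the RNA of conditioned cells was dyed with Cy5 on array A and with Cy3 on array B. Both arrays of a pair hold the same RNAs, so they count as 1 replicate and their SD is technical. Nothing says that separate cultures were grown. The 2 comparisons at a matched hour share no RNA, while the 2 comparisons with 0 h share MBN0 and each of them shares its MBC RNA with a matched-hour comparison.

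TRIM63 (MuRF1) and TRIM55 (MuRF2) belong to the muscle RING finger proteins, E3 ligases of the TRIM family that sit on the sarcomere and choose the proteins to be tagged with ubiquitin. An E1 enzyme activates ubiquitin, an E2 enzyme carries it, the E3 ligase joins it to the substrate, and the proteasome degrades the tagged protein. TRIM63 and FBXO32 (atrogin-1) are the ligases whose transcripts are classically high in wasting muscle, and TRIM54 (MuRF3) is the remaining member of the MuRF family. In muscle, transcription of Trim63 is raised by FOXO factors and by the glucocorticoid receptor.

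The promoter of mouse Trim63 is shown because it carries matches to the binding motifs of both of these regulators. The stretch is chr4:134314870-134315169 on the + strand of GRCm38.p6, from RefSeq, and runs from 250 bases before the transcription start to 50 after it. Of the 2 genes, 1 had an entry in the promoter table used. Capitals mark, in order, a palindromic hormone response element, a forkhead motif and a TATA box.

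Trim63 promoter: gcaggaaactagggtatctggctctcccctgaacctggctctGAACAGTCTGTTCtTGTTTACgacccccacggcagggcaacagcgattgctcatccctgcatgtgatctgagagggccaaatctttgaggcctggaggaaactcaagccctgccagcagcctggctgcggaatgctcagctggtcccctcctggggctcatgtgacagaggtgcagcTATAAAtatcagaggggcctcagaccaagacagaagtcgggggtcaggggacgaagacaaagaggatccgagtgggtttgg

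The palindromic element, searched as GAACA and TGTTC with any 3 bases between, reads GAACAGTCTGTTC and spans positions -208 to -196 from the start. This motif occurs in 19 of 32851 promoters of the same length (0.0578%). The forkhead motif TGTTTAC lies at -194 to -188, next to that element and not overlapping it, and occurs in 3.65% of promoters. TATAAA lies at -31 to -26 and occurs in 13.6%. The E-box CANNTG, which myogenic factors such as MyoD bind, occurs 3 times and is in 72.3% of promoters. All motifs were searched on both strands, and a match is a description of the sequence only.

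The deposited value of a spot is a signed score whose scale and direction are not given in the sources used here. Scores are therefore given in score units with no fold changes. Each array was centred on its median (-0.06 to 0.10 as deposited), and the SD of the scores was 1.34 to 1.58. Over all 2922 genes arrays A and B of a pair correlated below 0 in each of the 4 pairs (Pearson r of -0.32, -0.28, -0.13 and -0.27 in the order of the comparisons above). By the rule of the test plan, the main reading therefore takes the scores as Cy5 over Cy3 and turns the sign of array B. The alternative, the conditioned-over-control reading, takes array B as deposited. Neither the labels nor these correlations settle the choice, so both are given. A dye effect on single genes was not tested. In either reading a positive value is taken as higher in conditioned medium. For the conditioned-over-control reading this follows the labels, which call that RNA the Test and the control the Reference. For the Cy5-over-Cy3 reading it assumes that Cy5 is the numerator, which the labels do not give. Were the scores made the opposite way, all signs would flip. Each score sets 2 RNAs against each other, so the level of a marker gene, and with it the labelled cell type, could not be checked. In bulk RNA fewer cells of a type and less RNA per cell cannot be told apart.

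With the signs as deposited, TRIM63 lay far from 0 on all 4 arrays of the matched-hour comparisons and its sign followed the dye. At 14 h it scored 2.12 on array A and -2.26 on array B. At 24 h it scored 2.98 and -2.93. At both hours the 2 arrays thus had nearly the same size and opposite signs. From the highest score down, TRIM63 ranked 130 and 22 of 2922 on the A arrays, and from the lowest score up it ranked 72 and 56 on the B arrays.

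In the comparisons with 0 h the sign of TRIM63 did not follow the dye. MBC14 over MBN0 gave 0.53 on array A and 1.55 on array B, and MBC24 over MBN0 gave 0.65 and 1.46. All 4 scores were above 0 as deposited, and the B array was the higher of each pair. For the B array of MBC14 over MBN0, the labelling text and the dye field name opposite dyes, and the dye field was used. The other choice would turn that array's sign in the Cy5-over-Cy3 reading.

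TRIM55 was less even between arrays. At 14 h it scored 3.08 on array A, rank 52 from the highest, and 0.05 on array B. At 24 h it scored 1.58 and -2.55, opposite signs as for TRIM63. The 14 h score thus rested on 1 array.

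Against 0 h, TRIM55 scored 0.95 on array A and -0.21 on array B for MBC14, and 0.98 and -1.5 for MBC24. In these comparisons its sign did follow the dye on both pairs, unlike that of TRIM63. The 2 ligases had the same sign on the A arrays of all 4 comparisons and opposite signs on both B arrays with 0 h RNA. Their signs also differed on array B of MBC14 over MBN14, where TRIM55 was barely above 0.

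**Figure D1:**
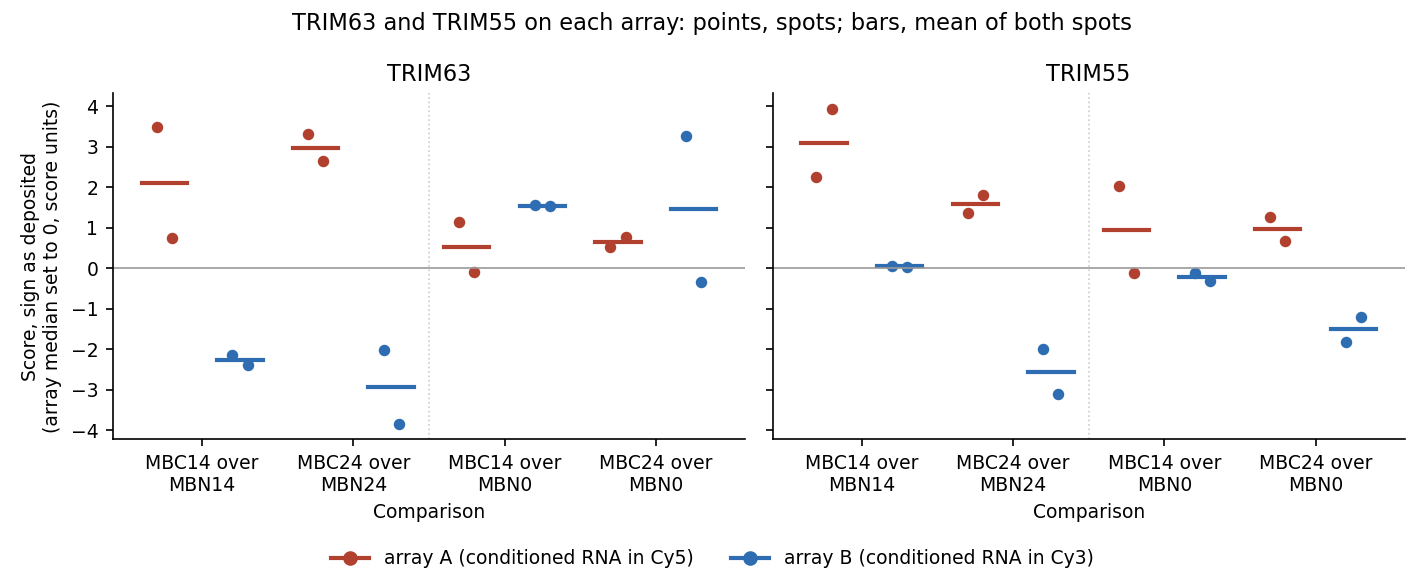
Scores of TRIM63 (left) and TRIM55 (right) in score units, with the sign as deposited and each array's median set to 0, for the 4 comparisons on array A (red) and array B (blue). Points are the 2 spots of the gene and bars their mean. At matched hours TRIM63 lies above 0 on the A arrays and below 0 on the B arrays, while its means with 0 h RNA are all above 0.

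Each gene has 2 spots next to each other in the table, numbers 1307 and 1308 for TRIM63 and 4129 and 4130 for TRIM55, and both spots of a gene list the same human transcript. The spots name human genes while the RNA came from mouse, and whether related MuRF transcripts bound to them was not tested. Over the 8 arrays the 2 spots of TRIM63 differed by a median of 0.95 (0.03 to 3.62), and those of TRIM55 by 0.60 (up to 2.13), beside 0.80 over the 2641 genes with 2 spots.

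The close match of the TRIM63 arrays therefore does not show how far single spots spread. At 14 h its spots read 3.48 and 0.76 on array A and -2.15 and -2.38 on array B. At 24 h they read 3.30 and 2.66 on array A and -2.02 and -3.84 on array B. All 8 spot values at matched hours had the sign of their array. The difference between the spots on array A at 14 h, 2.72, was larger than that of 92.4% of the genes with 2 spots.

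With 0 h RNA the TRIM63 spots parted most on array B of MBC24. For MBC14 they read 1.15 and -0.09 on array A and 1.56 and 1.53 on array B. For MBC24 they read 0.54 and 0.77 on array A and 3.27 and -0.35 on array B. That last difference, 3.62, exceeded that of 96.3% of genes, and the second spot was on the other side of 0.

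The TRIM55 spots at matched hours read 2.24 and 3.93 on array A and 0.06 and 0.03 on array B at 14 h. At 24 h they read 1.36 and 1.81, and -1.99 and -3.11. Both spots thus gave the near-0 score of array B at 14 h. With 0 h RNA they read 2.02 and -0.11 on array A and -0.11 and -0.32 on array B for MBC14. For MBC24 they read 1.27 and 0.68, and -1.81 and -1.19.

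A gene passed the size rule in a comparison if the mean of its A and B scores had a size of 1 or more and neither array fell short of 0.5 in the direction of that mean. In the Cy5-over-Cy3 reading TRIM63 scored 2.19 ± 0.10 (SD, n = 2 arrays) in MBC14 over MBN14, rank 61 of 2922, and passed upward, as 9.1% of genes did. In MBC24 over MBN24 it scored 2.95 ± 0.04, rank 18, and passed upward, as 7.94% of genes did. It passed at both hours, as 3.76% of genes (110) did. Over the 4 single spot values the SD was 1.12 at 14 h and 0.79 at 24 h, far wider than over the 2 arrays. Each spot alone passed at both hours, with means of 2.81 and 1.57 at 14 h and 2.66 and 3.25 at 24 h.

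TRIM55 in the same reading scored 1.52 ± 2.21 in MBC14 over MBN14 and did not pass, since array B gave -0.047 after turning. In MBC24 over MBN24 it scored 2.07 ± 0.68, rank 77, and passed upward. Both of its spots passed there, at 1.68 and 2.46. Centred on 11 neighbouring spots, its mean was 1.08. Of the 2 ligases, 1 thus passed upward at 14 h and both at 24 h. The members were chosen with these comparisons known, so nothing is read from those shares.

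Against MBN0 the Cy5-over-Cy3 means of TRIM63 were -0.51 ± 1.47 for MBC14 and -0.40 ± 1.5 for MBC24, with 1 array above and 1 below 0 each time. TRIM55 scored 0.58 ± 0.52 for MBC14 and did not pass, where 7.29% of genes passed upward. For MBC24 it scored 1.24 ± 0.37, rank 183, and passed upward, as 8.38% of genes did. That pass was carried by the first spot, at 1.54, since the second alone stood at 0.94, just under the threshold. Of the 2 ligases, 0 passed upward for MBC14 and 1 for MBC24.

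The conditioned-over-control reading gave other values. At matched hours TRIM63 then scored -0.074 ± 3.10 and 0.026 ± 4.18, its 2 arrays cancelling. TRIM55 scored 1.57 ± 2.15 at 14 h, rank 56, without passing, and -0.48 ± 2.92 at 24 h. Of the 2 ligases, 0 passed upward at either hour in this reading, against 3.56% and 3.7% of genes.

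In the same reading TRIM63 passed upward against MBN0 at both hours. It scored 1.04 ± 0.72 for MBC14, rank 262, where 5.61% of genes passed upward, and 1.06 ± 0.57 for MBC24, rank 129, where 3.11% did. Both passes rested on the first spot, which alone gave 1.36 ± 0.29 and 1.90 ± 1.94. The second spot gave 0.72 ± 1.15 and 0.21 ± 0.79 and passed neither. TRIM55 passed in neither, at 0.37 ± 0.83 and -0.26 ± 1.75. In both readings TRIM63 therefore passed upward in 2 comparisons. No comparison could be in common for any gene. The size rule needs both arrays on one side of 0, and the readings differ in the sign of array B.

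**Figure D2:**
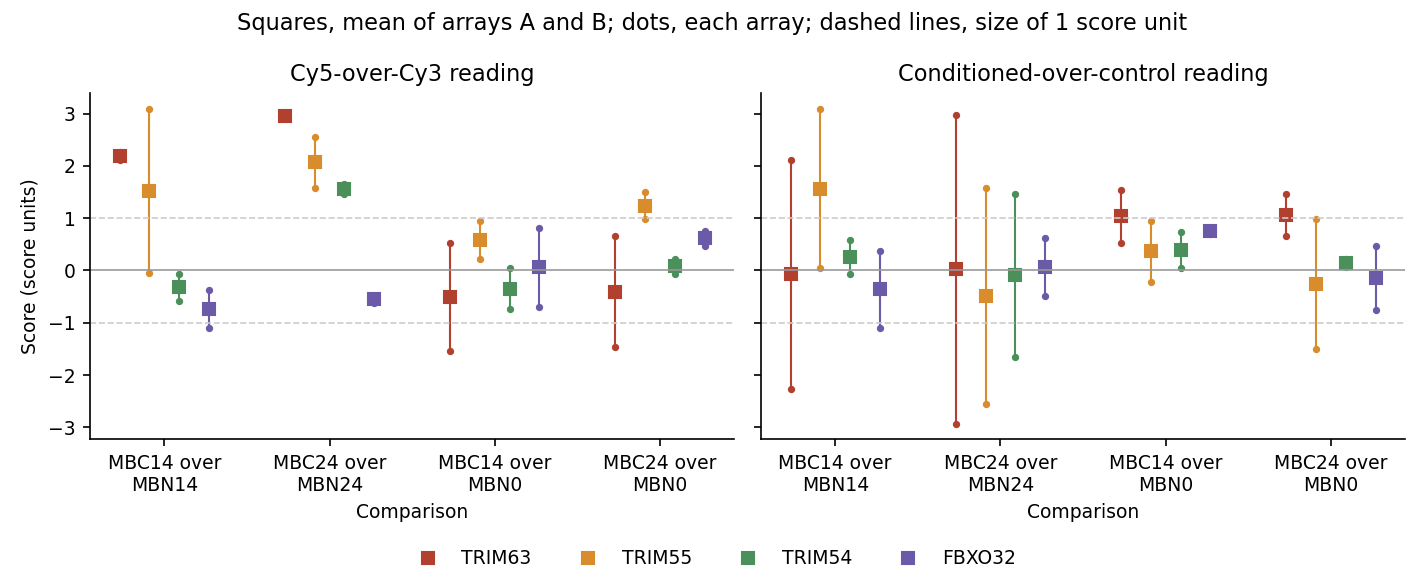
Mean score (squares) and each array's score (dots joined by a line) of TRIM63, TRIM55, TRIM54 and FBXO32 in the 4 comparisons, in score units. The left panel shows the Cy5-over-Cy3 reading, the right panel the conditioned-over-control reading, and dashed lines mark a mean of 1 in size. TRIM63 stands at 2.19 and 2.95 at matched hours on the left and at -0.074 and 0.026 on the right.

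Averaged over the 4 matched-hour arrays in the Cy5-over-Cy3 reading, TRIM63 stood at 2.57 ± 0.45 (SD over arrays) and was above 0 on 4 of 4. TRIM55 stood at 1.79 ± 1.37 and was above 0 on 3 of 4. Over the 4 arrays with 0 h RNA the order was turned, with TRIM63 at -0.46 ± 1.21 and TRIM55 at 0.91 ± 0.53. In the conditioned-over-control reading TRIM63 stood at -0.024 ± 3.0 over the matched-hour arrays and 1.05 ± 0.53 over those with 0 h RNA, and TRIM55 at 0.54 ± 2.41 and 0.054 ± 1.18.

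The difference between the ligases, TRIM63 minus TRIM55 on the same array, was not steady at 14 h in the Cy5-over-Cy3 reading. In MBC14 over MBN14 array A gave -0.97 and array B 2.31, a mean of 0.67 ± 2.32. In MBC24 over MBN24 it was 1.40 and 0.38, a mean of 0.89 ± 0.72. TRIM63 was thus the higher on both arrays at 24 h only, and the difference between the hours was not tested. Against MBN0 it was the lower on all 4 arrays, by means of -1.09 ± 0.94 for MBC14 and -1.64 ± 1.87 for MBC24.

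Comparisons that share an RNA were subtracted to describe the control medium over time, which holds only if the scores add like log ratios, and that is not known. In the Cy5-over-Cy3 reading TRIM63 in MBN14 over MBN0 came to -2.70 ± 1.57 (array letters A and B gave -1.59 and -3.81), and 2.02% of genes lay lower. MBN24 over MBN0 came to -3.36 ± 1.46 (-2.33 and -4.39), with 0.58% of genes lower. In this reading, and on that condition, the TRIM63 differences lay below 0 on both array letters, and both spots gave means below 0 (-3.02 and -2.38 for MBN14, -4.03 and -2.68 for MBN24). TRIM55 came to -0.93 ± 1.69 (-2.13 and 0.26) and -0.83 ± 0.31 (-0.61 and -1.05), so only its 24 h value lay below 0 on both letters. Each of these values takes off a matched-hour score that was known when the ligases were chosen. The shares of genes, and the like signs of letters and spots, are thus no separate result.

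Within conditioned medium, MBC24 over MBC14 came to 0.10 ± 0.03 for TRIM63 and 0.66 ± 0.90 for TRIM55. The small TRIM63 value averages 2 spots that went opposite ways, at -1.16 ± 0.78 for the first and 1.37 ± 0.72 for the second. The matched-hour score at 24 h minus that at 14 h was 0.76 ± 0.14 for TRIM63, above 0 on both letters (0.86 and 0.66). It came from the second spot, at 1.68 ± 0.31, while the first gave -0.15 ± 0.03. For TRIM55 it was 0.55 ± 2.90, with -1.5 on letter A and 2.60 on letter B. None of these differences was tested. In the conditioned-over-control reading the control medium values of TRIM63 were 1.11 ± 3.82 and 1.03 ± 4.75, so their direction was not held.

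The genes with a profile most like that of a ligase were found by the Euclidean distance over the 8 centred array scores, which turning array B does not change. Nearest to TRIM63 were TIMP1, an inhibitor of matrix metalloproteinases (distance 1.49), the co-chaperone DNAJC7 (1.91) and ATP5PF, a subunit of ATP synthase (2.37). POFUT2, which adds fucose to proteins, and TSC22D4 followed at 2.43 each. The Pearson r of these 5 genes with TRIM63 over the 8 arrays, as deposited, was 0.90 to 0.97. Points share RNAs, so r is a description.

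TRIM55 was not among them. It ranked 189 in distance from TRIM63 (4.53, r = 0.62), beside a median distance of 6.41 over all genes. TRIM54 ranked 168 (r = 0.65) and FBXO32 1909 (6.90, r = -0.56). Of the 3 other ligases, the MuRF relatives thus lay nearer to TRIM63 than the median gene and FBXO32 lay farther. TRIM55 was chosen together with TRIM63 with these scores known, and TRIM54 averages pairs of spots that disagreed. No likeness within the family is therefore read from these ranks.

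Nearest to TRIM55 were SYS1, a Golgi protein (distance 1.55, r = 0.98), GLUL, glutamine synthetase (2.01, r = 0.94), and THBS4, a thrombospondin of the extracellular matrix (2.5, r = 0.88). TNFAIP2 (2.51) and RSAD1 (2.63) followed. TRIM54 ranked 246 (3.96, r = 0.54) and FBXO32 1677 (5.80, r = -0.40), beside a median distance of 5.56.

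**Figure D3:**
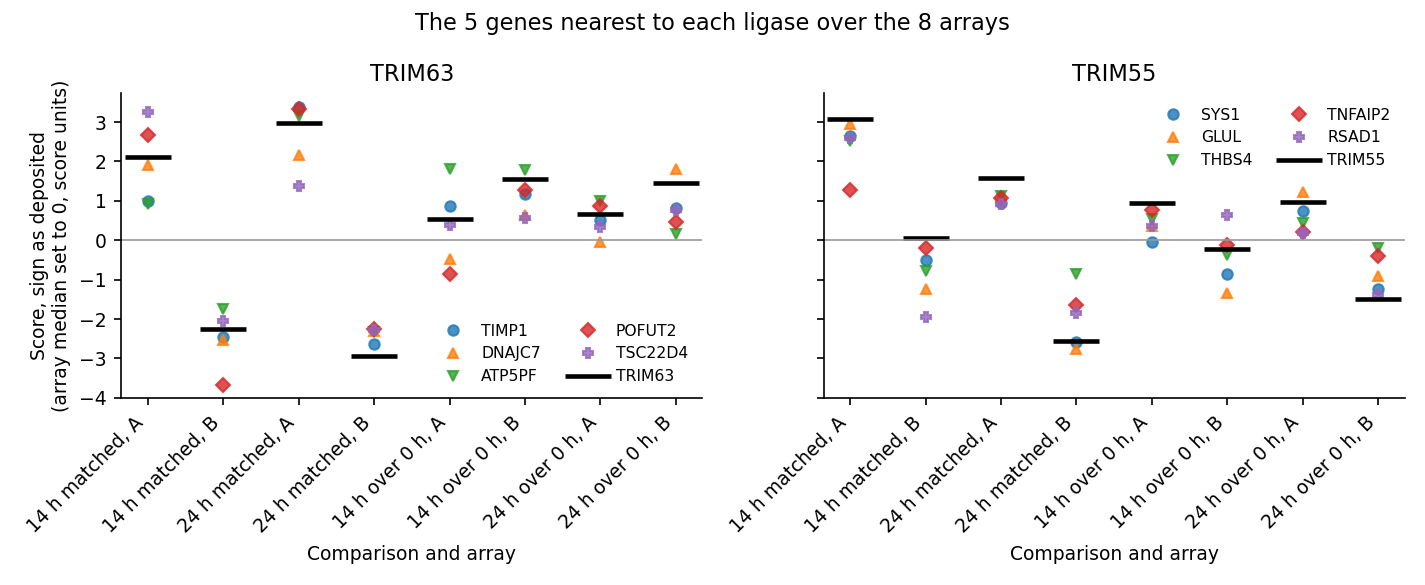
Scores on each of the 8 arrays, in score units with the sign as deposited, of TRIM63 (left) and TRIM55 (right) as black bars and of the 5 genes nearest to each as symbols. TIMP1 and DNAJC7 follow TRIM63 below 0 on both matched-hour B arrays, and SYS1 follows TRIM55 to its low score on array B at 24 h.

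The sign pattern of TRIM63 over the 4 matched-hour arrays, above 0 on A and below 0 on B, was shared by 373 genes (12.8%). That of TRIM55, which was barely above 0 on array B at 14 h, was shared by 143 genes (4.89%).

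FBXO32, the atrophy ligase usually measured beside TRIM63, had the opposite sign at matched hours in the Cy5-over-Cy3 reading. As deposited it scored -1.10 and 0.38 on arrays A and B of MBC14 over MBN14 and -0.49 and 0.61 in MBC24 over MBN24. Turned to Cy5 over Cy3, the means were -0.74 ± 0.51 and -0.55 ± 0.09, so all 4 matched-hour arrays lay below 0, where TRIM63 was above 0 on all 4. The mean of -0.65 ± 0.38 (SE) did not pass the matched-hour limma fit (adjusted p = 0.365). That fit tests 1 array-averaged score from each matched hour for a shift from 0, two-sided, over all genes with Benjamini-Hochberg adjustment. Against MBN0 FBXO32 scored 0.06 ± 1.07 for MBC14 and 0.61 ± 0.20 for MBC24. In the conditioned-over-control reading it scored 0.76 ± 0.09 for MBC14 over MBN0, above 0 on both arrays as TRIM63 was, and -0.14 ± 0.87 for MBC24 over MBN0. Its matched-hour scores in that reading were -0.36 ± 1.05 at 14 h and 0.06 ± 0.78 at 24 h.

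TRIM54 completes the MuRF family with TRIM63 and TRIM55. In the Cy5-over-Cy3 reading its matched-hour scores were -0.32 ± 0.37 at 14 h and 1.56 ± 0.13 at 24 h. It passed the size rule upward at 24 h. Its mean of 0.62 did not pass the limma fit (adjusted p = 0.498). It has 4 spots in 2 pairs, which disagreed, and they were looked at apart after the values were seen. The first pair gave -1.42 at 14 h and -0.07 at 24 h, and the second gave 0.79 and 3.18. The 24 h value of TRIM54 thus came from 1 pair of spots.

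The limma fit was read for the other genes of the pathway lists only, since TRIM63 and TRIM55 were chosen with that contrast known. Beside these 2, 6 muscle ubiquitin ligases were measured, and 0 of the 6 passed in either direction, where 3.08% of all genes passed upward and 2.12% downward (5.2% in all). Their median in the matched-hour mean was -0.47, beside -0.05 over all genes, and 1 of 6, TRIM54, was above 0. Over all genes, 1362 of 2922 were above 0 in that mean, the background for such counts in every list. ASB2, a cullin adaptor of muscle, and FBXO40, an F-box protein of muscle, passed the size rule downward at 14 h, at -1.63 and -1.03, as 10.8% of genes did. ASB2 stood at 0.55 at 24 h in the Cy5-over-Cy3 reading and at -2.11 in the other, where it passed downward, as 2.33% of genes did.

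Beside TRIM63 and TRIM55, 5 genes of the TRIM family were measured and 0 passed the limma fit. TRIM28, a transcriptional corepressor, stood at -1.10 in the matched-hour mean (adjusted p = 0.127), TRIM7 at -1.09, TRIM44 at -0.57 and TRIM37 at -0.52. TRIM54, at 0.62, was above 0 through 1 pair of spots.

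Further along the pathway, 8 of 146 genes in 6 lists passed the limma fit (5.48%), close to the 5.2% of all genes. With a replicate block, which enters the arrays singly with an estimated correlation, 3 of the 146 passed (2.05%). In that fit 98 of all 2922 genes passed. Of the 17 genes for ubiquitin, E1 and E2 enzymes and related modifiers, 0 rose and 1 fell: UBE2S, an E2 that extends ubiquitin chains in mitosis (-1.69 ± 0.39 SE, adjusted p = 0.0397, and adjusted p = 0.0648 with an estimated correlation). The list's median was -0.56 and 4 of 17 were above 0, beside 1362 of 2922 over all genes. Of 46 other ligase subunits 1 rose and 1 fell, and their median was 0.01. RNF5, a ligase of the endoplasmic reticulum membrane, rose by 3.07 ± 0.39 (adjusted p = 0.00534). ASB12, a cullin adaptor, fell (-1.83 ± 0.44, adjusted p = 0.0475 by limma). It was lost with an estimated correlation (adjusted p = 0.08) and without the B arrays (adjusted p = 0.239). RNF5 was kept with an estimated correlation (adjusted p = 0.0226). RNF5 was lost when centred on 11 neighbouring spots (adjusted p = 0.261) and without the A arrays (adjusted p = 0.308).

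RNF5 differed from TRIM63 in the comparisons with 0 h. Its arrays A and B kept opposite signs there too, at 5.25 and -2.46 for MBC14 and 2.00 and -1.52 for MBC24, where both arrays of TRIM63 were above 0. The mean Cy5-over-Cy3 scores of RNF5 against MBN0 were thus 3.85 and 1.76, and the difference from TRIM63 was not tested.

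Of 22 proteasome genes 1 rose, the assembly chaperone PSMG1 (1.70 ± 0.41, adjusted p = 0.0475 by limma), and 0 fell. PSMG1 was lost with an estimated correlation (adjusted p = 0.0532), with centring on 51 neighbouring spots (adjusted p = 0.0986) and without the B arrays (adjusted p = 0.373). Their median was -0.07 and 9 of 22 were above 0. The subunits PSMD9, at 1.86 (adjusted p = 0.053), and PSMD4, a ubiquitin receptor at -1.40 (adjusted p = 0.0682), did not pass. Of 11 deubiquitinases, which remove ubiquitin, 0 rose and 0 fell. Their median was 0.36 and 9 of 11 were above 0, beside 1362 of 2922 over all genes. USP11 stood lowest at -1.19 (adjusted p = 0.12 by limma).

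Of 35 substrates and binding partners of the MuRF proteins 2 rose and 1 fell in the fit. The myosin light chain MYL2 rose by 2.30 ± 0.47 (adjusted p = 0.0266), and the troponin TNNC1 by 2.2 ± 0.48 (adjusted p = 0.0353). The creatine kinase CKB fell (-1.97 ± 0.43, adjusted p = 0.0342). With an estimated correlation TNNC1 was lost (adjusted p = 0.0558), while MYL2 (adjusted p = 0.0496) and CKB (adjusted p = 0.0475) passed. Centred on 51 neighbouring spots, MYL2 (adjusted p = 0.0512) and CKB (adjusted p = 0.0571) were lost and TNNC1 was not. The median was 0.07, with 18 of 35 above 0. Titin (TTN), the giant sarcomere protein to which MuRF proteins bind, stood at -0.26 over 22 spots and did not pass (adjusted p = 0.734).

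Of 15 upstream genes 0 rose and 1 fell: SMAD3, a mediator of TGF-beta and myostatin signals (-1.75 ± 0.40, adjusted p = 0.0375 by limma). SMAD3 was lost with an estimated correlation (adjusted p = 0.0546), with centring on 51 neighbouring spots (adjusted p = 0.0888) and without the B arrays (adjusted p = 0.22). FOXO3, one of the forkhead factors of the motif in the promoter shown above, stood at 0.26 and did not pass (adjusted p = 0.739). FOXO1 had no spot of its own name among the genes used here. Of the 21 genes of the atrophy programme other than TRIM63, 0 passed, their median was -0.05 and 10 were above 0. CAST, the inhibitor of calpains, stood at -1.27 and did not pass (adjusted p = 0.0886). With array B as deposited, limma called 0 genes of any list and 0% of all genes, with 91 genes at an unadjusted p under 0.05. In the Cy5-over-Cy3 reading, with each spot centred on 11 neighbours limma called 2 of all genes, and without the A arrays 0, with 303 at an unadjusted p under 0.05.

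**Figure D4:**
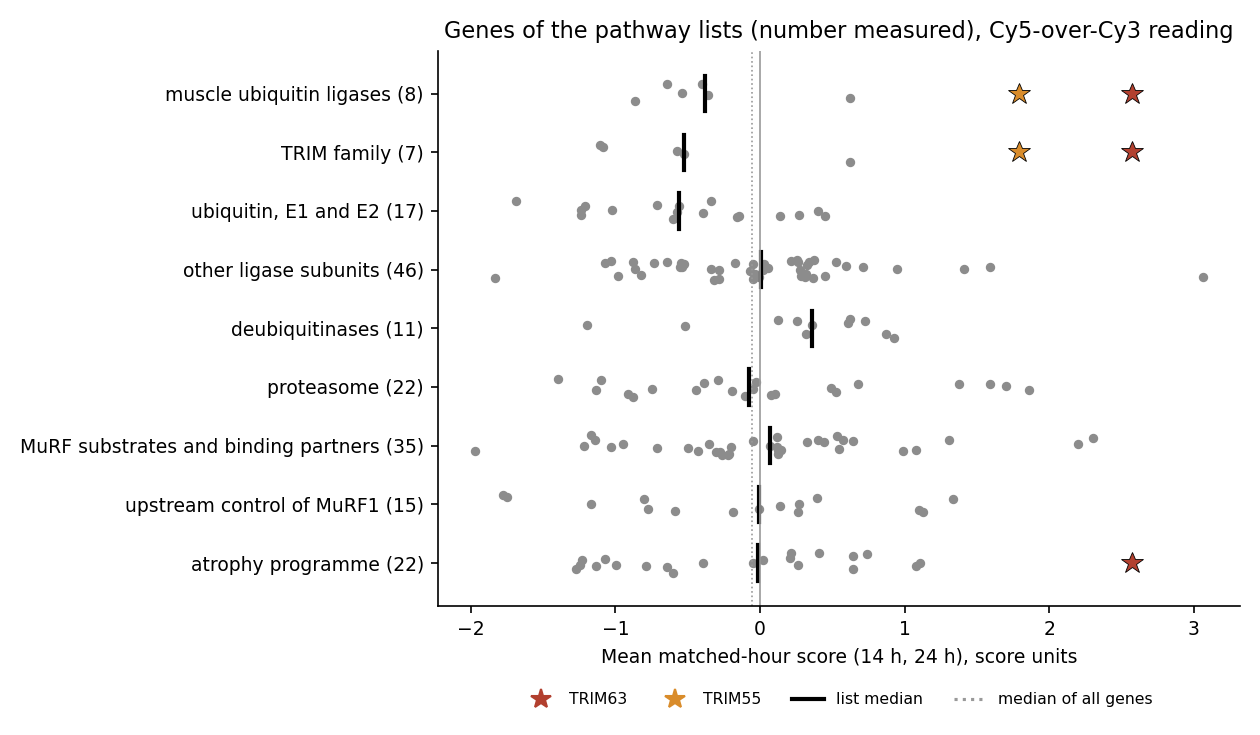
Mean score of the 14 h and 24 h matched-hour comparisons, in score units and the Cy5-over-Cy3 reading, of each gene (points) in 9 lists of the ubiquitin pathway and muscle atrophy, with the number measured in parentheses. Stars are TRIM63 and TRIM55, vertical bars are list medians, the dotted line is the median of all genes and the vertical scatter carries no value. TRIM63 at 2.57 and TRIM55 at 1.79 lie above the other muscle ligases, and both were chosen with these scores known.

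Of 7 blood markers, 1 rose and 1 fell in the limma fit, their median was -0.45 and 3 of 7 were above 0. The haemoglobin gene HBA2 rose by 3.97 (adjusted p = 0.00249), while HLA-DRB1, an antigen-presenting molecule of blood cells, fell (-2.25, adjusted p = 0.0236, and adjusted p = 0.0607 with an estimated correlation). Without the B arrays HLA-DRB1 was lost too (adjusted p = 0.3 by limma). HBA2 scored 7.25 and -1.66 on arrays A and B at 14 h and 1.96 and -5.00 at 24 h, and 1.97, 2.59, 0.61 and 3.61 with 0 h RNA. It thus had the sign of TRIM63 on each of the 8 arrays, a pattern held by 23 genes, TRIM63 included (0.787%). Nothing is read from that match for the other blood markers. The endothelial marker CLDN5 fell (-1.86, adjusted p = 0.0301 by limma). It was lost with centring on 51 neighbouring spots (adjusted p = 0.0516) and without the B arrays (adjusted p = 0.151). TNNC1 was the 1 of 8 myoblast and myotube markers that rose, and 0 of the 7 fibroblast and smooth muscle, 2 epithelial and 2 adipocyte markers passed. Their part in the scores of TRIM63 and TRIM55 was not tested.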

How the data were processed

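RNA of C2C12 myoblasts was measured on 8 spotted 2-colour arrays in 4 dye-swapped pairs, per the labels. The authors deposited a table of 9984 spots with 1 signed score for each array and no empty cell. Its making was not given in the sources used here. Values run from -23.57 to 24.79, so they were not taken as log2 ratios, as the test plan had assumed, and its tests were applied to the scores unchanged. Scanner intensities were not used, so signal over background is unknown, and precision is limited by the few arrays.

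The median of each array was set to 0. Genes were named from the 2016 platform annotation (6610 spots with 1 gene, 106 with several, 3268 unnamed), and spots of a gene were averaged to 2922 genes. The matched-hour test was limma 3.58.1 in R 4.3.3, on 2 array-averaged scores per gene with Benjamini-Hochberg adjusted p under 0.05. It was tested on simulated data. Its SE and p-values rest only on the spread between these scores, moderated by the spread over all genes. They are thus not a gene's own spread alone, and the spread may be technical. Array letters did not pair the comparisons (correlation of deviations -0.06 for the matched-hour and 0.17 for the 0 h comparisons). The members and the gene lists were chosen with earlier results of these data known. From each list the genes passing the fit, or the size rule in 1 direction at both matched hours, were named, at most 4 by size, or else the gene of largest score. FBXO32, TRIM54, FOXO3 and TTN were always named. Alternatives changed the reading, centring, scaling, spot averaging, size threshold, arrays and fit.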

Additional observations from a re-analysis of the deposited data

Results flagged for a closer look

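Among the 27 genes named by rule, 6 had both arrays on one side of 0 at 14 h and both on the other at 24 h. The difference between the hours was not tested in any of them. TRIM54, the relative of TRIM63 and TRIM55, went from -0.32 to 1.56 in the matched-hour comparisons of the Cy5-over-Cy3 reading, a difference of 1.87. That pattern held for 7.36% of all genes there. In the comparisons with 0 h of the same reading, where 8.38% of genes did so, MYL2 went from -0.48 to 0.83 (difference 1.30), the deubiquitinase USP11 from -0.73 to 0.68 (1.42) and the adipocyte marker RBP4 from -0.40 to 0.14 (0.55). In the conditioned-over-control reading the epithelial marker SPINT2 went from -0.92 to 0.76 at matched hours (1.67), beside 10.3% of genes. The ligase RNF220 went from 1.30 to -0.77 with 0 h RNA (-2.08), beside 7.8% of genes. Neither TRIM63 nor TRIM55 showed this pattern in either reading.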

How the results depend on the processing

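In the conditioned-over-control reading the matched-hour mean of TRIM63 turned from 2.57 to -0.024 and its MBC14 over MBN14 score from 2.19 to -0.074. TRIM55 turned to -0.48 in MBC24 over MBN24 and to -0.26 in MBC24 over MBN0. With 0 h RNA the mean became 1.05 for TRIM63 and 0.054 for TRIM55. Centring on 11 neighbouring spots gave TRIM63 2.06 at matched hours, and TRIM55 1.08 in place of 2.07 in MBC24 over MBN24. Leaving out an array, TRIM55 in MBC14 over MBN14 ranged from -0.047 (without array A) to 3.08. Genes past the size rule numbered 581, 515, 458 and 563 in the order of the comparisons. The conditioned-over-control reading gave 186, 176, 302 and 200. A threshold of 1.5 gave 244, 233, 183 and 209, and of 0.5 gave 1082, 1080, 1012 and 1104. Centring on 11 neighbours gave 366 for the first. Single arrays gave 994 to 1006, 950 to 981, 947 to 1015 and 960 to 1005, since 1 array must then pass alone. The limma fit called 152 genes, 267 with arrays scaled to one SD, 2 with 11 neighbours and 0 in the other reading. With a replicate block on the comparison and a term for the array letter it called 98. That fit enters both arrays of a pair singly, with a correlation of -0.12 estimated over all 8 arrays. Leaving out arrays gave 0 (without the A arrays, 303 at an unadjusted p under 0.05) to 128. Beyond the construction of these settings the cause was not tested. With 1 RNA per group and unknown signal, no spread between cultures could be measured.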
